A study of Mus musculus with 10 samples.

Results

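The cells described here are J558 cells that carry an empty retroviral vector, the control culture of a study of the B-cell factor Pax5. J558 is a long-established mouse myeloma (plasmacytoma) line, that is, a malignant line of antibody-secreting plasma cells, and the parent tumour made an IgA antibody with a lambda light chain. The 3 arrays labelled as PIG empty vector (EV) are the members, of 10 arrays in all; the others hold J558 cells with wild-type Pax5 (WT, 3 arrays) or with Pax5 carrying the G183S substitution (4 arrays). The same MSCV backbone, with puromycin resistance and GFP after an internal ribosome entry site, was used in every group. The EV cells lack the Pax5 insert of the others and share infection, puromycin for 5 to 7 days and a sort step on GFP and IgM. The labels do not say which IgM gate the EV cells came from, so a difference in gate cannot be told apart from the insert. The cultures are of a single cell line. The replicates are called independent and biological with nothing said of separate infections, so p-values measure the spread between these cultures. Affymetrix gene arrays read the total RNA, and each value is the log2 level of a probe set.

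Plasma cells are the end of the B lineage. Pax5 holds B-cell identity and is switched off when Irf4, Prdm1 (Blimp-1) and Xbp1 install the plasma cell programme, in which B-cell surface receptors are lost and the endoplasmic reticulum (ER) is enlarged to fold, glycosylate and export antibody. Xbp1, with Atf6 and the kinase Ern1 (IRE1), belongs to the unfolded protein response, which raises ER chaperones, disulphide isomerases and the machinery that removes misfolded proteins.

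For each of 19937 genes the probe set with the highest mean over the 3 EV arrays was taken, and genes were ranked by that mean. Since the arrays carry no call of presence, 1224 chemosensory receptor genes (olfactory, vomeronasal and taste receptors), which a blood cell has little use for, served as the reference for dim signal. Their median level was 4.55, their 95th percentile 6.31 and their 99th percentile 6.99. A gene at or under 6.31 is called dim, a gene over 6.99 above the reference, and a gene between them borderline; dim does not mean absent. By this measure 10614 genes (53.2%) were above the reference, 2356 borderline and 6967 (34.9%) dim. Genes over the 90th percentile, 10.73, are called bright here, 1994 genes in all. A second reference, 45 genes restricted to tissues such as liver, muscle and brain, sat somewhat higher, with a median of 6.12 and 8 of 45 above the limit, so levels just over 6.99 are weak evidence of expression. The level of a probe set depends on its probes as well as on the RNA, and ranks between genes are therefore coarse.

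**Figure D1:**
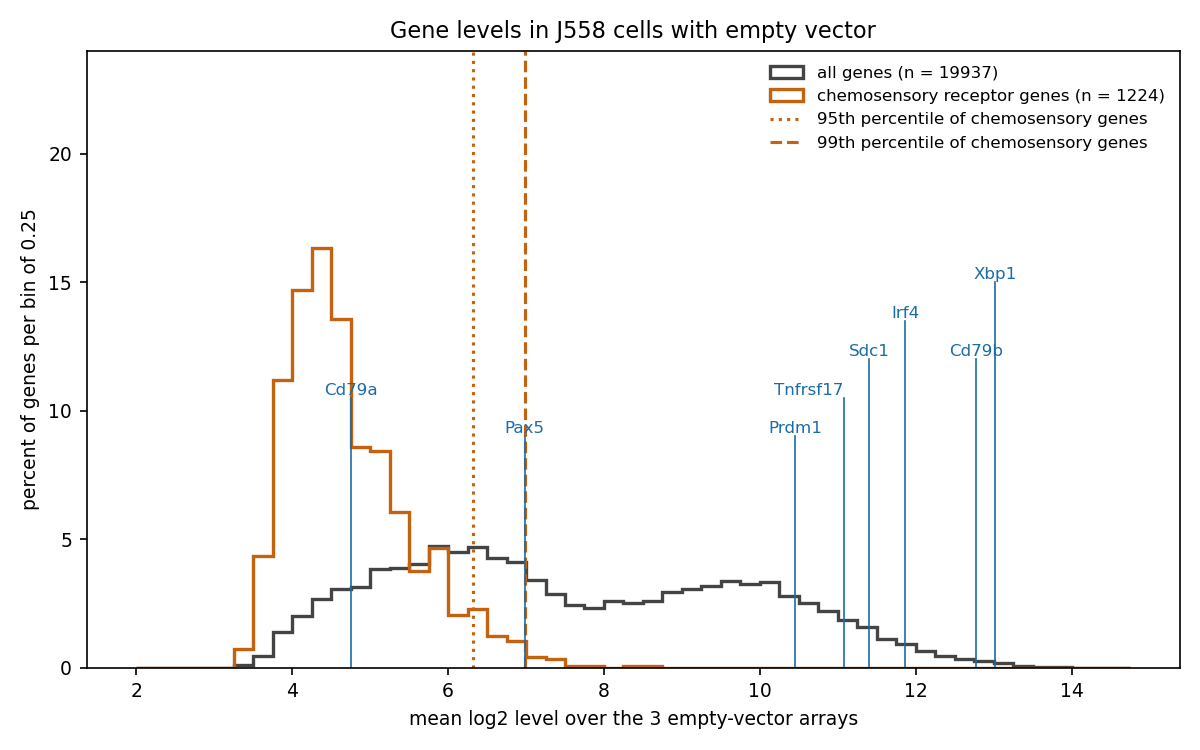
Distribution of mean log2 levels over the 3 empty-vector arrays (x axis) as the percent of genes per bin of 0.25 (y axis), for all 19937 genes and for 1224 chemosensory receptor genes. Dotted and dashed lines mark the 95th (6.31) and 99th (6.99) percentiles of the chemosensory genes, and vertical blue lines mark single genes: the 5 plasma cell markers and Cd79b lie far to the right, Pax5 lies on the 99th percentile line and Cd79a lies among the chemosensory genes.

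The 3 EV arrays were close to each other. Pearson correlations across genes, which are not independent replicates, were 0.996 between arrays 1 and 2, 0.996 between arrays 1 and 3, and 0.998 between arrays 2 and 3. Of all genes, 10113 were above the limit of their own array in all 3 arrays and 8820 in 0 of 3. The median SD over the 3 arrays was 0.09 for genes above the reference. The label check held for the introduced gene: Pax5 read 7.10, 6.84 and 7.01 in the EV arrays, between 10.05 and 10.67 in the WT arrays and between 9.38 and 10.36 in the G183S arrays, with no overlap between EV and either other group.

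The defining genes of plasma cells were high in the EV arrays. Xbp1, the transcription factor of the secretory programme, read 12.94, 13.04 and 13.06 in arrays 1 to 3. Irf4, the factor on which plasma cells and myeloma cells depend, read 11.80, 11.77 and 12.02. Sdc1, which encodes the plasma cell surface proteoglycan CD138, read 11.22, 11.51 and 11.48. These 3 genes were bright in every array, with ranks of 65, 508 and 930. Tnfrsf17, which encodes the survival receptor BCMA, read 10.83, 11.04 and 11.36 (rank 1408) and was also bright in every array. Prdm1, the repressor that ends the B-cell programme, read 10.46, 10.40 and 10.51 (rank 2539), just under the bright limit and far over the reference. All 5 markers were thus above the reference in each of the 3 arrays.

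The wider set of plasma cell factors was uniformly on. All 19 measured members of that list were above the reference, 15 of them bright, with a median of 11.24 against 7.22 for all genes. Pou2af1, the coactivator OCA-B of immunoglobulin gene transcription, had a mean of 12.94 ± 0.06 (SD, n = 3). Mzb1, an ER protein that helps IgM and J-chain-containing antibody assemble, stood at 12.55 and Sub1 at 12.19. The lowest members were Creb3 at 10.45, Pou2f2 (Oct-2) at 9.35 and Ikzf3 (Aiolos) at 8.61, all still above the reference.

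The B-cell factors were split. Of 19 measured, 14 were above the reference, 4 borderline and 1 dim, with a median of 7.97, and 3 were bright. The bright ones were Mef2c at 11.63, Spi1 (PU.1) at 11.25 and Tcf4 (E2-2) at 11.20; Tcf3, which encodes the E2A proteins, stood at 10.21. Spi1 was steady, at 11.23, 11.31 and 11.21 in the 3 arrays. At the other end Ebf1, the factor that specifies the B lineage together with Pax5, was dim in every array (4.95, 4.96 and 5.16). Pax5 itself had a mean of 6.98 ± 0.13 (SD, n = 3), which fell on the borderline side of the limit of 6.99. It crossed to the other side without EV array 1, with olfactory genes alone as the reference and with the median over arrays in place of the mean, so its band is not settled by these data. Lef1, a factor of early B and T cells, was borderline at 6.35, as was the germinal centre factor Bcl6 at 6.43.

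Factors of other blood lineages lay near the middle of all genes, with 0 bright. Of 18 measured, 8 were above the reference, 6 borderline and 4 dim, where 53.2% of all genes were above and 34.9% dim. Their median was 6.95 against 7.22 for all genes. The highest were Runx1 at 9.55 and Runx3 at 9.22, both used in several lineages including B cells, followed by Gfi1b at 8.19 and Cebpe at 8.18, which serve erythroid, platelet and granulocyte development. Nfe2 at 6.05, Gata3 at 5.73 and Eomes at 5.53, which drive platelet, T-cell and cytotoxic programmes, were dim.

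**Figure D2:**
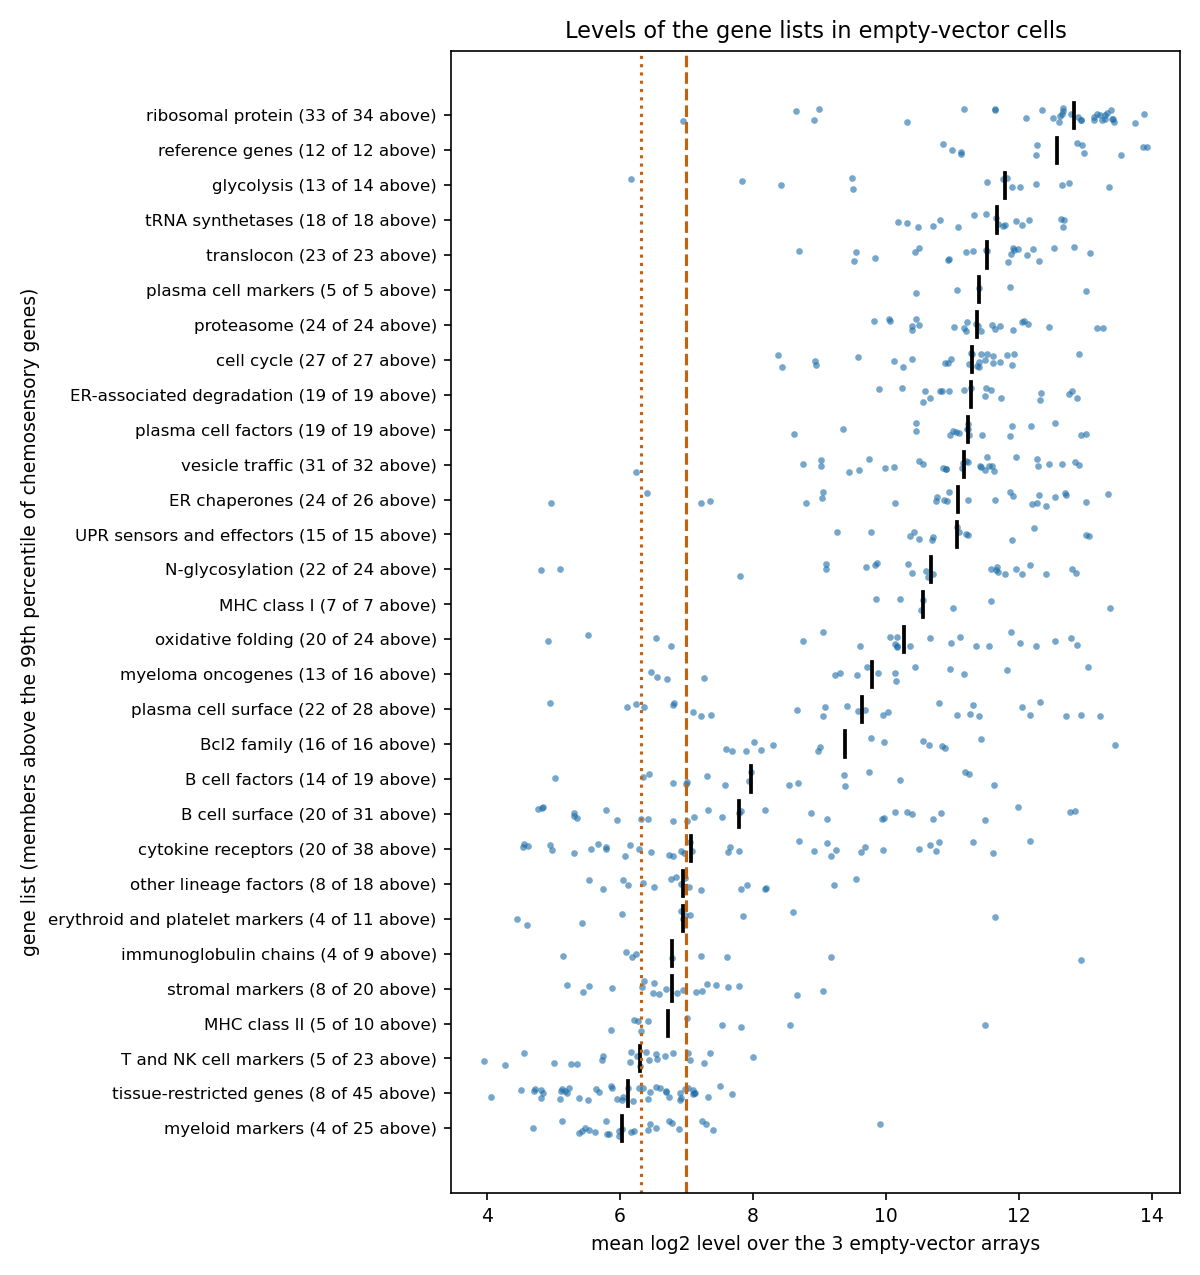
Mean log2 level over the 3 empty-vector arrays (x axis) of each measured gene of 30 lists (y axis, ordered by median; points are genes with vertical jitter, bars are medians). The dotted and dashed lines are the 95th and 99th percentiles of chemosensory receptor genes; lists of the secretory route, translation and division have medians over 10, while T and NK cell, myeloid and tissue-restricted lists have medians under 6.31.

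On the surface, genes of plasma cells were mostly present. Of 28 measured, 22 were above the reference, 3 borderline and 3 dim, and 11 were bright. The highest were Slc3a2 at 13.23, Cd81 at 12.93, Slc7a5 at 12.71 and Cd28 at 12.32. Slc3a2 and Slc7a5 form the large amino acid transporter, and Cd28 is a co-stimulatory receptor found on plasma cells and myeloma cells. The dim members were Cd27 at 6.24, Cd9 at 6.10 and the gut-homing receptor Ccr9 at 4.94. Alongside Tnfrsf17, the related receptors of the cytokines BAFF and APRIL were bright: Tnfrsf13b (TACI) read 12.02, 12.05 and 12.07, and Tnfrsf13c (the BAFF receptor of mature B cells) read 11.84, 12.11 and 12.02.

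The B-cell surface list held both extremes. Of 31 measured, 20 were above the reference, 2 borderline and 9 dim, and 5 were bright. Its 4 highest members were Cd53 at 12.84, Cd79b at 12.78, Tnfrsf13c at 11.99 and Cd74, the invariant chain, at 11.49. Its 3 lowest were Cd55 at 4.84, the complement receptor Cr2 at 4.82 and Cd79a at 4.76. The B-cell markers Cd22 at 8.87 and Fcer2a at 7.33 were above the reference.

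Cd79a and Cd79b encode Ig-alpha and Ig-beta, the paired signalling chains of the B-cell receptor, and they lay at opposite ends of the list. Cd79b read 12.70, 12.81 and 12.84 in the EV arrays. Cd79a read 4.92, 4.60 and 4.75, close to the median of the chemosensory genes, and was dim in all 3 arrays. Cd79a stayed low with introduced Pax5 as well: it read 4.93, 4.70 and 5.53 in the WT arrays and 4.92, 5.33, 4.78 and 4.75 in the G183S arrays, which overlap the EV values. Ptprc, the pan-leukocyte phosphatase CD45 that plasma cells lower, was dim on average at 5.95 ± 0.39 (SD, n = 3), with array 2 at 6.38 just over the dim limit and the others at 5.85 and 5.63. Ms4a1 (CD20), a B-cell marker, was above the reference and uneven between arrays: arrays 2 and 3 read 10.42 and 10.21, and array 1 read 9.30.

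Receptors for cytokines and chemokines gave a mixed picture, with 20 of 38 measured above the reference, 5 borderline and 13 dim. These counts are near the shares of all genes (53.2%, 11.8% and 34.9%). The highest were Cxcr4 at 12.17, which holds plasma cells in the bone marrow, the shared chain Il10rb at 11.62, the interferon receptor chain Ifnar2 at 11.31, and Il6ra at 10.81, the receptor of the main growth factor of plasmacytomas. The lowest were Il2ra at 4.61, Ccr2 at 4.56 and Ccr1 at 4.54, receptors of activated T cells and monocytes.

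Antigen presentation separated by class. All 7 measured genes of class I presentation were above the reference, led by B2m (beta-2 microglobulin) at 13.37 and the peptide loading genes Tapbp at 11.58 and Tap1 at 11.01. Of the 10 class II genes measured, 5 were above the reference, 1 borderline and 4 dim, where 53.2% of all genes were above. Cd74 was the only bright member, H2-DMa stood at 8.55, and H2-Ea at 6.27, H2-Oa at 6.21 and H2-Eb2 at 5.87 were dim. Ciita, the master activator of class II genes, had a mean of 7.01, so close to the limit that leaving out EV array 1 or EV array 2 put it under.

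Markers of cells that a culture could hold besides plasma cells were near the reference, with exceptions. T and NK cell markers had 5 of 23 above and 12 dim; Cd3d was dim at 5.35, Cd8a dim at 6.30 and Cd3e borderline at 6.55, while Cd4 was above the reference and uneven between arrays. Myeloid markers had 4 of 25 above and 15 dim. Csf1r at 5.79, Cd14 at 5.47 and S100a8 at 4.69 were dim. Adgre1 at 6.77 and Elane at 6.54 were borderline, and Mpo at 7.40 was above the reference. Cd68, a lysosomal protein, stood at 9.91. Erythroid and platelet markers had 4 of 11 above, 7 of 11 without EV array 1; Alas2 was dim at 6.03, Tfrc, the transferrin receptor of any dividing cell, stood at 11.65, and the platelet glycoprotein Gp9 at 8.61. Fibroblast, endothelial and epithelial markers had 8 of 20 above; Col1a1 stood at 7.63, Col1a2 at 7.30 and Col3a1 at 7.24, Pdgfrb was borderline at 6.49, and Epcam at 9.06 and Pecam1 at 8.67 were higher. The counts of these lists moved with the limit: with tissue-restricted genes as the reference, 1 of 23, 1 of 25 and 4 of 20 of the T and NK, myeloid and stromal markers were above, and with the 95th percentile of the chemosensory genes as the limit 11 of 23, 10 of 25 and 16 of 20 were.

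The immunoglobulin genes could be followed only in part, since only 9 of 18 listed genes had a probe set with a single symbol. Jchain, which joins IgA and IgM into polymers, read 12.89, 12.86 and 13.07 and was bright. Igha, the constant region of the parent line's antibody, averaged 7.22 ± 0.34 (SD, n = 3), with array 1 at 7.61 and the others at 6.97 and 7.06. A second Igha probe set stood at 5.59, so even the band of this gene depends on the probe set. Ighm, the heavy chain of IgM, was dim in the EV arrays except for array 1 at 6.34 (6.17 and 6.21 in the others), and its further probe sets were lower, at 6.15 and 3.89. Vpreb3, a partner of B-cell receptor assembly, stood at 9.17, and Ighg3 was dim at 5.14.

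The 25 highest genes, with ribosomal, mitochondrial, histone, small RNA, predicted and antigen receptor symbols set aside, ended at rank 50. The genes set aside above that rank numbered 25, of which 18 were ribosomal proteins. Actb led the named genes at 13.93, then the elongation factor Eef1a1 at 13.87. Translation, folding and turnover of protein supplied Eif4a1, Eef2, Tpt1, Hspa5, Hspa8, Ube2d3 and the proteasome subunits Psmb5 and Psmb3. Energy and redox genes supplied Slc25a5, Atp5b, Atp5d, Txn1, Fth1 and the metallothionein Mt2. Mcl1, the survival factor on which plasma cells rely, ranked ninth among the named genes at 13.46 ± 0.02 (SD, n = 3), and B2m, Slc3a2, Serinc3, Ctsz, Rhoa and Trp53inp1 were also in the set.

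Some of the highest genes took their level from a probe set away from the gene's own chromosome. Identifiers of the array run along the chromosomes, so a probe set that sits among neighbours from a chromosome other than that of its named gene can be spotted. There were 569 of them among 21640, and 276 genes (1.38%) took their level from such a probe set. They made up 8.02% of the brightest 10% of genes and 3 of the 1994 genes of the dimmest 10%. Of the 25 highest named genes 9 were of this kind, among them Kcnma1, a potassium channel gene at 13.84, whose probe set at its own chromosome read 5.00, and Hk1 at 13.36, whose own probe set read 8.87. For 245 genes with both kinds the median drop to the own-chromosome probe set was 1.06. With such probe sets left out 19 of the 25 named genes remained, and Golph3l, Sec61a1, Sqstm1, Spg21, Asns and Nsa2 entered, at 13.06 to 13.08. Eif4a1, Slc25a5, Hspa8 and Ube2d3 left the set along with Kcnma1 and Hk1. Their own-chromosome probe sets read 12.35, 12.97, 12.47 and 12.37. The ranks of these genes thus depend on which probe set is read, whereas 0 of 595 list genes with an own-chromosome probe set changed sides of the limit.

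The secretory route was on along its whole length. Over 7 lists, from entry into the ER to vesicle coats, 153 of 162 genes were above the reference, 98 bright, 3 borderline and 6 dim, with a median of 11.13. Srp9, Tmed10 and Tmed2 counted as bright through probe sets away from their own chromosome, where their own probe sets read 9.69, 8.92 and 7.36. Entry into the ER came first: all 23 measured genes of the translocon list were above the reference, led by Sec61a1, the channel itself, at 13.08, Ssr2 at 12.83, Tram1 at 12.54 and the signal peptidase subunit Spcs1 at 12.30. The lowest, Sec61a2, a paralogue of the channel, still stood at 8.69.

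Chaperones and disulphide enzymes followed. Of 26 ER chaperones and partners 24 were above the reference, and 18 were bright. Hspa5 (BiP), the main ER chaperone, read 13.51, 13.29 and 13.21; Hsp90b1 (GRP94) averaged 13.01, Canx 12.71 and Calr 12.69, the calnexin and calreticulin of the glycoprotein folding cycle. The exceptions were Serpinh1, the collagen chaperone, borderline at 6.41, and Pdilt, an isomerase of testis, dim at 4.96. Of 24 oxidative folding genes 20 were above, led by the oxidase Ero1a at 12.88 and the isomerases Pdia4 at 12.79, Pdia3 at 12.55 and P4hb at 12.26, while Pdia2, an isomerase of pancreas, was dim at 4.92.

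Glycosylation, quality control and export completed the picture. Of 24 N-glycosylation genes 22 were above, led by the oligosaccharyltransferase subunits Dad1 at 12.86, Stt3a at 12.80 and Ddost at 12.41; Tusc3 at 5.10 and the mannosidase Man1a at 4.81 were dim. All 19 measured genes of ER-associated degradation were above, led by Herpud1 at 12.87, Ube2j1 at 12.80 and Edem1 at 12.76. All 15 measured sensors and effectors of the unfolded protein response were above, with Ern1 at 12.24, Atf6 at 11.89 and Asns, a target of the amino acid and ER stress factor Atf4, at 13.06, down to Ppp1r15a (GADD34) at 9.26. Of 32 genes of vesicle traffic 31 were above, led by Arf1 at 12.91, Lman1 (ERGIC-53) at 12.85, Tmed2 at 12.66 and Copa at 12.46. The own-chromosome probe set of Tmed2 read 7.36, above the reference but under the bright limit. Mia2 was the dim exception at 6.23.

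Translation and protein turnover were as uniformly high. Of 34 ribosomal protein genes measured 33 were above the reference and 29 bright. The bright count depends in part on probe sets away from the gene's chromosome. The own-chromosome probe sets of Rpl19, Rpl23 and Rpl24 read 8.08, 8.29 and 8.80, under the bright limit of 10.73. All 18 tRNA synthetases were above, from Nars at 12.68 to Farsa at 10.19, and all 24 proteasome genes were above, from Psmb5 at 13.26 to Psma2 at 9.82. Glycolysis genes were above in 13 of 14 cases, with Ldha at 12.76, Aldoa at 12.65 and Pgk1 at 12.25 and the neuronal enolase Eno2 dim at 6.16.

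Some genes induced by the unfolded protein response are known to carry the ER stress element, the letters CCAAT, 9 bases of any kind, then CCAC (CCAATNNNNNNNNNCCAC), which Atf6 and Xbp1 are known to use with the factor NF-Y. The promoter windows of 4 of the brightest carriers are shown as examples of the element. Whether the element bears on the levels above was not tested. Each runs 5′ to 3′ on the strand of its gene, from 250 bases before to 50 after the start, from RefSeq on GRCm38.p6, with the element in capitals; a match on the opposite strand reads GTGG first and ATTGG last. The windows are Hspa5 at chr2:34771840-34772139 (+ strand), Hsp90b1 at chr10:86705395-86705694 (- strand), Calr at chr8:84846882-84847181 (- strand) and Herpud1 at chr8:94386179-94386478 (+ strand).
Hspa5: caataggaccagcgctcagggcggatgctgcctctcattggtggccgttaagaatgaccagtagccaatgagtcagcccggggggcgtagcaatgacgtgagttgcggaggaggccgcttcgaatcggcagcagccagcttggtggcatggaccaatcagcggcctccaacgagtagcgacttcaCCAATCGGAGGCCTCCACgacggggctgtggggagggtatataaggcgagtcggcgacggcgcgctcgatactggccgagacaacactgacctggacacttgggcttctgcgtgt
Hsp90b1: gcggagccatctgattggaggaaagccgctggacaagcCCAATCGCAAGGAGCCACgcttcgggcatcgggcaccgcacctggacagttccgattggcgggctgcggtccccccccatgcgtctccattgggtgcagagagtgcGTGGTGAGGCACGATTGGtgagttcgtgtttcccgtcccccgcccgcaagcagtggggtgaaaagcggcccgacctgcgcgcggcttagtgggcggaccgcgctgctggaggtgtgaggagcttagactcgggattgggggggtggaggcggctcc
Calr: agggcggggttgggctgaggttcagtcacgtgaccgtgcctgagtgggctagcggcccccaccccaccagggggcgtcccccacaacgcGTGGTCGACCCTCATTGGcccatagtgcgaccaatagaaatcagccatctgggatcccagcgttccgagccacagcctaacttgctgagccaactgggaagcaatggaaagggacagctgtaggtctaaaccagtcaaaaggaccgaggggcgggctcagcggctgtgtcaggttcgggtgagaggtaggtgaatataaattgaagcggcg
Herpud1: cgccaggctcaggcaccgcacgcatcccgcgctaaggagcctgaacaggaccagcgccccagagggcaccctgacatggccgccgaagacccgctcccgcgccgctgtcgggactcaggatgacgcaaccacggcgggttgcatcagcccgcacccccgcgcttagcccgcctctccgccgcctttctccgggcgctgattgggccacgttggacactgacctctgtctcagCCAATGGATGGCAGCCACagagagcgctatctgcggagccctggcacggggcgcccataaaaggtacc
The Hspa5 match began at position -65 from the start, the Hsp90b1 matches at -212 and -106, the Calr match at -161 and the Herpud1 match at -18.

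Searched on both strands, the element was rare, and most of its carriers stood in none of the lists. It was found in 71 of 15613 genes with a window (0.455%), 15 in a list and 56 in none. By level, 15 of 1562 genes (0.960%) in the brightest 10% held it and 5 of 1562 (0.320%) in the dimmest, with 0.192% to 0.641% in the groups between. Among the lists, 6 of 22 ER chaperone genes held it (Hspa5, Hsp90b1, Calr, Canx, Dnajc3 and Creld2), 4 of 21 oxidative folding genes (Pdia3, Pdia4, Pdia6 and Ero1b) and 4 of 16 genes of ER-associated degradation (Derl2, Derl3, Syvn1 and Herpud1). In the plasma cell factors Pou2af1 was the carrier, 1 of 16, and in the other 26 lists 0 genes held it, the translocon, glycosylation and vesicle lists and the 13 sensors and effectors of the unfolded protein response with a window included. The full element, with a G after CCAC, was found in 21 genes, 9 of them in the brightest 10%, and the median level of its carriers was 10.48 against 7.36 for all genes with a window; the 71 carriers of the shorter element had a median of 7.15. CCAAT alone was in 41.7% of genes and varied little with level, from 37.1% to 44.9% over the groups. Promoter composition differed along the ranking too: the median count of CpG per window was 2 in the dimmest 10% and 23 in the brightest.

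Genes of growth, survival and division were mostly above the reference. Myc, which is joined to the immunoglobulin heavy chain locus in most mouse plasmacytomas, read 13.09, 12.97 and 13.06. Among the D cyclins Ccnd2 stood at 11.83, Ccnd3 at 10.16 and Ccnd1 borderline at 6.55; Maf at 6.70 and Mycn at 6.47 were also borderline. In all 13 of 16 myeloma genes were above the reference. All 16 measured genes of the Bcl2 family were above as well, with Mcl1 highest, then the death genes Bnip3l at 11.44, Bcl2l11 (BIM) at 10.89 and Bid at 10.85, and Bok lowest at 7.60. All 27 genes of dividing cells were above the reference, with Pcna at 12.91, Mki67 at 11.93, Rrm1 at 11.90 and Rrm2 at 11.82.

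EV array 1 stood apart from the other EV arrays in the genes of dividing cells. The median level of the 27 genes was 10.95 in array 1, 11.43 in array 2 and 11.47 in array 3. In 26 of 27 genes array 1 was below the mean of arrays 2 and 3, by a median of 0.52, where the middle 90% of genes above the reference ran from -0.36 to 0.31 around a median difference of -0.03. The medians of the other lists lay between -0.12 and 0.11. With introduced Pax5 the medians of the same genes were 11.46, 11.33 and 11.48 in the WT arrays and 11.27, 11.44, 11.02 and 11.40 in the G183S arrays, so G183S array 3 lay near EV array 1. Over all genes above the reference, 36 had a range of at least 1 over the EV arrays, and in 31 of them array 1 was the farthest from the middle array.

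**Figure D3:**
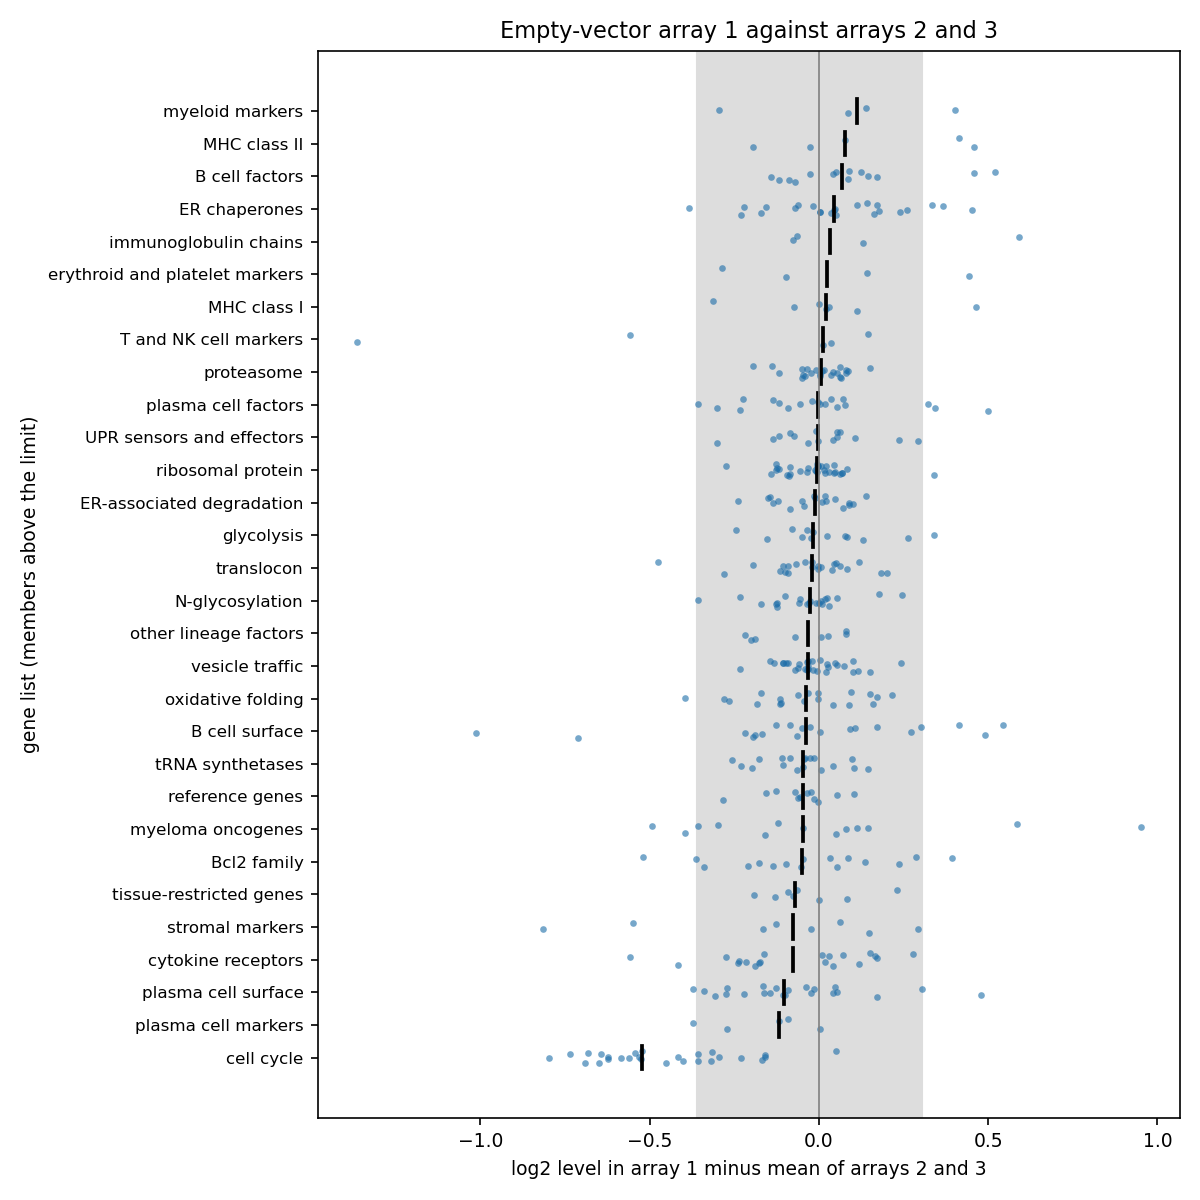
Log2 level in empty-vector array 1 minus the mean of arrays 2 and 3 (x axis) for the members of 30 lists that were above the reference (y axis; points are genes with vertical jitter, bars are medians). The grey band is the middle 90% of all 10614 genes above the reference (-0.36 to 0.31); the cell cycle list has a median of -0.52.

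The genes that varied most between the EV arrays included immune and secreted proteins. Cd4, the T helper co-receptor, read 7.09, 9.29 and 7.60, with array 2 high. Lcn2, the iron-binding protein lipocalin 2, read 9.11, 7.05 and 7.23, with array 1 high. Lilrb4a, an inhibitory receptor, read 8.27, 6.90 and 6.42, and Mmp13, a collagenase, 8.33, 7.03 and 6.60, again with array 1 high. The 10 most variable genes also held Rabgef1, Ascl4, Lrr1, Cyp2b10, Lrrc8e and Rasgrp3, with SDs from 0.72 to 0.87. Of the 10, array 1 was farthest in 8.

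Set against cells with introduced Pax5, the EV cells had lower levels of a group of B-cell surface and class II genes. The 2 comparisons share the EV arrays, so they are not independent of each other. The IgM gate of the EV cells is not given, so an effect of the gate cannot be told apart from that of the insert. By limma over all 19937 genes (adjusted p under 0.05), 374 genes (1.88%) differed between WT and EV, 176 higher with WT (0.883%) and 198 lower (0.993%); centring each array on its median gave 100 higher and 218 lower. For G183S the count was 62 (0.311%), 20 higher (0.100%) and 42 lower (0.211%). Leaving out single arrays moved these counts by more than 1.5 times. The WT count was 122, 21 and 6 without EV arrays 1, 2 and 3, 90 and 186 without WT arrays 1 and 2, and 1033, 212 and 214 without G183S arrays 1, 2 and 4. The G183S count was 11 and 8 without EV arrays 2 and 3, 112 without WT array 1, and 295, 22, 144 and 24 without G183S arrays 1 to 4. Of the 198 genes lower with WT 196 were above the reference at baseline, where 53.2% of all genes were. A gene that is dim at baseline has little room to read lower, so that count was largely set in advance. Of the 176 higher with WT 33 were dim and 20 borderline at baseline, and the rest were above the reference. The band and the difference use the same EV arrays, so no conclusion is drawn from these counts.

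Of the 162 secretory genes 1 was called for WT (0.617%, against 1.88% of all genes) and 0 for G183S (limma, against 0.311%), with 36 (22.2%) and 18 (11.1%) at an unadjusted p under 0.05, against 15.9% and 11.3% of all genes, and median log2 differences of -0.04 and -0.02. The called gene was Ero1b, an oxidase of the ER, which was higher with WT by 0.82 (SE 0.15, adjusted p = 0.0319), a call lost without EV array 1, 2 or 3, WT array 2 or G183S array 2 or 4. The secretory count for WT was 0 without EV array 1, 2 or 3, WT array 2 or G183S array 2, and was 14 without G183S array 1 (8.64%, against 5.18% of all genes) and 2 without G183S array 3; for G183S it was 2 without G183S array 1. Hspa5 read 13.16, 13.12 and 13.27 in the WT arrays and 13.20 to 13.55 in the G183S arrays, which overlap the EV values.

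The 5 plasma cell markers gave 0 calls in either comparison (limma), where 1.88% and 0.311% of all genes were called, so that 0 of 5 does not set them apart; 0 and 3 were at an unadjusted p under 0.05, against 15.9% and 11.3% of all genes. Sdc1 had a log2 difference from EV of -0.64 with WT (SE 0.30, adjusted p = 0.339) and of -1.14 with G183S (SE 0.28, adjusted p = 0.119). Its G183S values of 11.03, 9.73, 9.84 and 10.45 were all under the lowest EV value of 11.22, and so were its WT values of 10.97, 10.87 and 10.45. Tnfrsf17 read 10.25, 7.72, 8.96 and 9.04 in the G183S arrays, all under the EV values, a log2 difference of -2.08 (SE 0.51, adjusted p = 0.119). Without G183S array 1 both passed, Sdc1 at -1.40 (adjusted p = 0.0168) and Tnfrsf17 at -2.50 (adjusted p = 0.0246). Xbp1, Irf4 and Prdm1 overlapped the EV values in the G183S arrays. In the WT arrays Xbp1 read 12.93, 12.88 and 12.53, all under the EV values. Irf4 read 12.59, 12.54 and 12.20 there, all over the EV values. Neither was called for WT (limma, adjusted p = 0.506 and 0.323), and Tnfrsf17 and Prdm1 overlapped the EV values in the WT arrays. All 19 plasma cell factors also gave 0 calls (limma), with 3 (15.8%) and 1 (5.26%) at an unadjusted p under 0.05, and 0 of 19 is likewise near the share of all genes.

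In the B-cell surface list 8 of 31 were called for WT, all higher (against 0.883% of all genes), and 2 of 31 for G183S (against 0.100%). The list's median log2 difference was 0.65 for WT and 0.31 for G183S, against 0.013 and -0.0033 for all genes. The WT count was 4, 3 and 2 without EV arrays 1, 2 and 3, 4 without WT array 1 or 2, 13 without G183S array 1, and 5 without G183S array 2 or 4. The G183S count was 1 without EV array 2 or 3 or G183S array 2 or 4, 5 without WT array 1, 7 without G183S array 1, and 3 without WT array 3 or G183S array 3. Fcgr2b, the inhibitory Fc receptor, read 10.50, 10.35 and 10.10 in the EV arrays, 12.02 to 12.59 in the WT arrays and 12.07 to 12.27 in the G183S arrays. The groups did not overlap, and the differences from EV were 1.91 (SE 0.15, adjusted p = 0.00142) and 1.89 (SE 0.14, adjusted p = 0.00117), called in all 10 fits that left out an array. Ms4a1 was higher by 2.43 with WT (SE 0.33, adjusted p = 0.0126), a call lost without EV array 3, and by 2.27 with G183S (SE 0.30, adjusted p = 0.0171), a call lost without EV array 2 or 3 or G183S array 2 or 4. Siglecg, an inhibitory lectin, was borderline at baseline (6.80) and higher with WT by 1.69 (SE 0.16, adjusted p = 0.00324), called in all 10 such fits. Cd24a (adjusted p = 0.0454) and Fcer2a (CD23, adjusted p = 0.0412) were also higher with WT, calls that were lost without EV array 1, 2 or 3, WT array 2 or G183S array 2 or 4; Cd24a also lost its call without WT array 1 and Fcer2a without WT array 3.

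Class II genes had 6 of 10 called for WT, all higher (against 0.883% of all genes), 3 of which (Cd74, H2-Ab1 and H2-Eb1) also stand in the B-cell surface list, and 2 of 10 for G183S, both higher (against 0.100%). The WT count was 2, 1 and 1 without EV arrays 1, 2 and 3, and 1 without WT array 1 or 2. The G183S count was 1 without EV array 1, 2 or 3, WT array 2 or 3, or G183S array 2 or 4, and 4 without G183S array 1. H2-Ob, a chain of the class II loading regulator, read 6.61, 6.39 and 6.28 in the EV arrays, 8.47 to 8.99 in the WT arrays and 8.28 to 9.08 in the G183S arrays. It was called in both comparisons in all 10 fits that left out an array. H2-Ea, dim at baseline, differed most in size, by 3.96 with WT (SE 0.68, adjusted p = 0.0248), a call lost without EV array 1, 2 or 3 or WT array 1 or 2; its values with G183S were 8.62 to 11.37 (adjusted p = 0.0725).

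**Figure D4:**
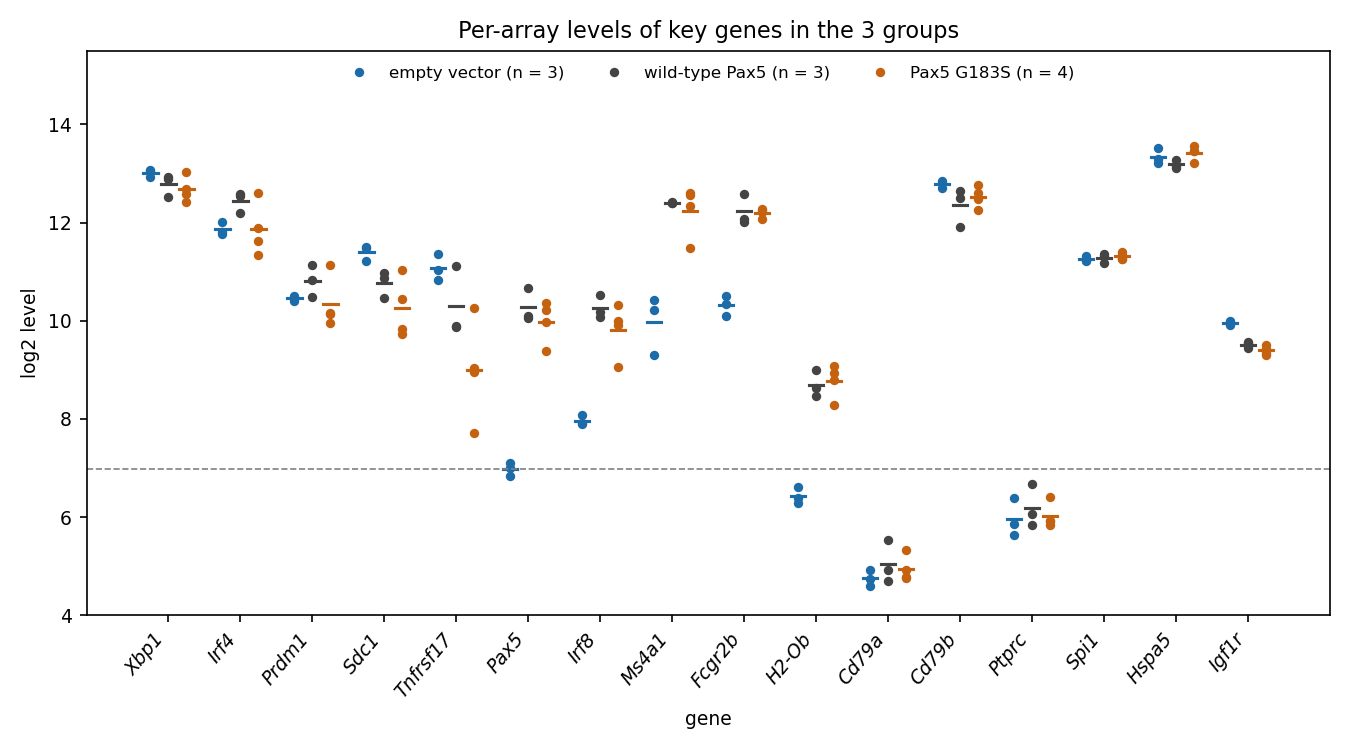
Log2 level (y axis) of 16 genes (x axis) in each array of the 3 groups; points are arrays, short bars are group means and the dashed line is the 99th percentile of chemosensory receptor genes in the EV arrays (6.99). Pax5, Irf8, Ms4a1, Fcgr2b and H2-Ob have EV values under those of both other groups, Igf1r has EV values over them, and Cd79a and Ptprc stay under the line in every array.

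Other list genes were called in smaller numbers. Among the B-cell factors 2 of 19 were called in each comparison (against 1.88% and 0.311% of all genes), the introduced Pax5 itself and Irf8, a factor of B cells and myeloid cells; Irf8 read 7.92, 8.07 and 7.91 in the EV arrays and 9.05 to 10.53 in the others, a call lost without EV array 3 for WT and without EV array 2 or 3 or G183S array 2 or 4 for G183S. Igf1r, the receptor of a myeloma growth factor, was higher at baseline: it read 9.99, 9.91 and 9.98 in the EV arrays, against 9.44 to 9.56 with WT and 9.30 to 9.51 with G183S. Its differences were -0.45 (SE 0.07, adjusted p = 0.0222), a call lost without EV array 1, 2 or 3 or WT array 1 or 3, and -0.56 (SE 0.07, adjusted p = 0.0112), lost without EV array 2 or 3. Markers of other cell types that were higher at baseline in both comparisons were Gp9, Pecam1 and Cd3g, with EV means of 8.61, 8.67 and 6.17 against 7.51, 7.13 and 5.08 with WT and 7.13, 7.12 and 5.02 with G183S. The Gp9 call for WT was lost without EV array 2 or 3, and those of Pecam1 and Cd3g also without WT array 1; for G183S those of Pecam1 and Cd3g were lost without EV array 2 or 3 or G183S array 2 or 4. Cd3g was dim at baseline. Among other T-cell markers Cd3d and Cd8a were also dim in the EV arrays and Cd3e was borderline. Cd4 was above the reference on average and uneven between the EV arrays. The interleukin receptor chain Il4ra (0.85, adjusted p = 0.0254) and the integrin Itgb3 (0.95, adjusted p = 0.0248) were higher with WT and the granzyme Gzma (-0.76, adjusted p = 0.0197) lower; all of these calls were lost without EV array 1, 2 or 3 or WT array 1, and that of Il4ra also without WT array 3. In the proteasome list 2 of 24 were lower with WT (against 0.993% of all genes), Psmb9 and Psmb10 of the immunoproteasome, with log2 differences of -0.52 and -0.61 (adjusted p = 0.0290 and 0.0306). Both calls were lost without EV array 1, 2 or 3 or WT array 1 or 3, and that of Psmb10 also without WT array 2 or G183S array 4. In the list of dividing cells 2 of 27 were higher with WT (against 0.883% of all genes), the kinetochore proteins Cenpe and Cenpf, by 1.58 and 1.52 (adjusted p = 0.0311 and 0.0404). EV array 1, low in that list, read 8.33 and 8.23 for them, beside 8.40 and 8.31 in array 2; both calls were lost without EV array 1, 2 or 3, WT array 1 or 2 or G183S array 2 or 4, and that of Cenpf also without WT array 3.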

How the data were processed

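The authors deposited log2 expression values per probe set; RMA and Partek are named, without versions or roles, in the submitters' processing notes, and per the labels 100 ng of total RNA was amplified. RMA brings the arrays to the same distribution, so a change common to most genes would be hidden. Scanner files and detection calls were not used here, and precision is limited by the small number of arrays. Of 34760 probe sets, 21640 had 1 gene symbol in the platform annotation (21553 matched to RefSeq of GRCm38.p6), 1321 had several and 11799 were unlisted and are unnamed here (4407 of these above the limit). For 954 genes with more than 1 probe set, the highest mean over EV arrays gave the profile and the highest mean over all 10 arrays the tests.

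Tests were limma 3.58.1 (R 4.3.3) over all 10 arrays with 1 coefficient per group and Benjamini-Hochberg adjustment over 19937 genes, tested on simulated data. Probe sets away from their gene's chromosome had at least 60% of neighbouring identifiers (8 each side) on another chromosome; that check was added after seeing the data. Named were the 5 markers, the 25 highest genes, the 4 highest and 3 lowest of each list and any called. The 10 of largest SD, a few key genes and the measured cell type markers were named too. Tnfrsf13b, Ptprc, Ciita, Ccnd3 and genes named for their promoters were chosen after their values were seen. The members and lists were chosen with earlier results of these data known; of 676 listed genes 77 had no usable probe set.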

Additional observations from a re-analysis of the deposited data

Results flagged for a closer look

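Of 25 genes examined in the 4 G183S arrays, 1 had an array far from the others: Ptprc, with G183S array 1 at 6.41 and the others between 5.84 and 5.93. Chance gives about 1 in 20 such cases; the highest EV array read 6.38.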

How the results depend on the processing

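The count of genes above the reference ran from 9106 to 12970 over 13 alternatives (10614 as reported), within 1.5 times in each. Of 390 list counts under these alternatives 376 stayed within 1.5 times; the 14 that moved were of lists near the limit (T and NK, myeloid, erythroid and platelet, stromal, other lineage factors, class II and tissue-restricted). Of 325 gene levels 321 moved by no more than the SD over the EV arrays, but many of them could not have moved further. Settings that changed only the limit left the levels as they were. Leaving out an array or taking the median over arrays keeps a probe set's level within that SD. The exceptions were Igha and Ighm with other probe sets and Mcl1 after centring (13.48). The counts of genes called were less steady: leaving out an array gave 6 to 1033 for WT against EV (374 as reported) and 8 to 295 for G183S against EV (62). With the replicate number as a block the counts were 228 and 10. Deviations of same-numbered arrays correlated from -0.16 to 0.11 between EV and the other groups. Between WT and G183S they correlated at 0.51, -0.16 and 0.455 for arrays 1 to 3. Whether the shared numbers pair the WT and G183S samples is therefore not settled. Centring, the filter on dim genes, the other choice of probe set and leaving out probe sets away from their gene moved the counts by less than 1.5 times (318 to 379, and 60 to 79). The planned search for ER retention signals at protein ends was not run, as no protein sequences were used here. Signal near the chemosensory reference cannot separate low expression from none.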
